A study of Homo sapiens with 12 samples.

Results

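H3K27ac peaks were examined around 9 human genes of MHC class I antigen presentation and its regulation, HLA-B, HLA-C, HLA-E, B2M, TAP1, PSMB8, PSMB9, NLRC5 and IRF1, chosen by name out of 20033 protein-coding genes in the GENCODE release 44 annotation of hg38. A peak was assigned to a gene as a promoter peak if it overlapped the 1 kb on either side of any annotated transcript start of that gene, and to its neighbourhood if it lay within 20 kb of such a start. HCT116 cells, an epithelial line from a human colorectal carcinoma, were left untreated or were treated for 24 h. Treated cells received 1 μM cobimetinib, an inhibitor of the MAPK kinase MEK, or 100 ng/ml TNFα, a cytokine that signals through NF-κB and AP1. Acetylation of histone H3 at lysine 27, a mark of active promoters and enhancers, was profiled by CUT&RUN, in which an antibody tethers a nuclease to chromatin and the freed fragments are sequenced. Each group has 2 H3K27ac libraries from the same cell line, and nothing in the labels says whether replicates came from separate cultures, so p-values measure the spread between these libraries, which may be technical. The 6 libraries made with a nonspecific IgG were not used, and the values therefore stand without a background from control libraries.

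Cells display fragments of their own proteins on MHC class I molecules, which cytotoxic T cells read. HLA-B and HLA-C encode classical heavy chains, HLA-E encodes a nonclassical heavy chain that is recognised by receptors of natural killer cells, and B2M encodes the light chain that every class I molecule carries. PSMB8 and PSMB9 encode catalytic subunits of the immunoproteasome, which cuts proteins into peptides, and TAP1 encodes a subunit of the transporter that brings those peptides into the endoplasmic reticulum. NLRC5 is a transactivator of class I genes and IRF1 is an interferon-responsive transcription factor. Promoters of this pathway are known to carry interferon-stimulated response elements and κB sites.

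The deposited lists held between 69813 and 124771 peaks per library. A peak is described here by its rank, which is 1 plus the number of peaks with a higher score in the same list, so that rank 1 is the top, because scores rise with sequencing depth and the depth of each library is unknown from the lists. Untreated replicate 2 stood apart, and the peak names in its list alone mark it as merged after resequencing. The median width of its 20000 highest peaks was 380.0 bp, against 922.0 to 1265.5 bp in the other 5 libraries, and the Pearson correlation of its promoter ranks with those of the others across genes was 0.66 to 0.70, against 0.75 to 0.85 among the others. Every result that compares the untreated group therefore rests in part on that library, and its values are given below beside those of untreated replicate 1. Of 8 colorectal epithelial markers, 5 had a promoter peak in all 6 libraries (EPCAM, KRT8, KRT18, KRT19 and CDH1) and VIL1 had none in any. The best CDH1 peak lay 64028 to 75255 bp from its canonical start in 5 libraries and over that start in TNFα replicate 2, at rank 65603. Of 9 immune, fibroblast and endothelial markers, COL1A1 had a promoter peak in all 6 libraries and 3 had none in any.

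The promoter sequences that matter for these genes are shown first. RefSeq promoters (GRCh38.p14) matched 7 of the 9 genes, and all 9 promoters found for them were identical to hg38. HLA-E and NLRC5 were not matched. The 250 bases before the start are printed 5′ to 3′ on the strand of the gene for 5 genes, because their peaks carry the comparisons below. Capitals mark matches, on either strand, to the interferon-stimulated response element (GAAA, any 2 bases, GAAA), the gamma-activated site (TTCNNNGAA) or the NF-κB consensus.
HLA-B: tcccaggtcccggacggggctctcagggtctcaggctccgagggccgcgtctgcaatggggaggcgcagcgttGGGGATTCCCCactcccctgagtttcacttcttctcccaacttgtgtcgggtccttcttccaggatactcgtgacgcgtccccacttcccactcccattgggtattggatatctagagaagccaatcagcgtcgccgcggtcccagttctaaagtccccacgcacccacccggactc
HLA-C: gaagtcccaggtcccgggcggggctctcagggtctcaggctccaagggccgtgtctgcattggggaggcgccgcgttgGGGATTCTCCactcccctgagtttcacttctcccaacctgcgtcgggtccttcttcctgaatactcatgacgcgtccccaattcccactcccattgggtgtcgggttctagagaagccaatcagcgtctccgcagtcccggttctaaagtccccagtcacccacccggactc
B2M: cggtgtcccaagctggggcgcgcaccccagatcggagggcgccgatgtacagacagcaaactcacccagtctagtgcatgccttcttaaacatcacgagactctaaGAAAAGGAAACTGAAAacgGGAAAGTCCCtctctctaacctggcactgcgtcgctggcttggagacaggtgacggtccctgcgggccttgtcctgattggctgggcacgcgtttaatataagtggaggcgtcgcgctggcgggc
TAP1: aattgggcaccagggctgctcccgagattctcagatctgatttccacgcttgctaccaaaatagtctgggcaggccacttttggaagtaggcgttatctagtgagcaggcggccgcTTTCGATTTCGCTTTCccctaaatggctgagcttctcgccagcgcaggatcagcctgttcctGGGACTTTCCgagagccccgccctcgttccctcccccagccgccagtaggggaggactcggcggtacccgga
IRF1: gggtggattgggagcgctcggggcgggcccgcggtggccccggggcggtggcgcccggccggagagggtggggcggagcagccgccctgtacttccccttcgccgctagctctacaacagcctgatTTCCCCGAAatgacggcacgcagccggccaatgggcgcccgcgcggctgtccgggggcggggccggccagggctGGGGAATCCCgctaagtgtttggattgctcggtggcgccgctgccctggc
These stretches lie at chr6:31357180-31357429 (minus strand), chr6:31272093-31272342 (minus strand), chr15:44711267-44711516 (plus strand), chr6:32853705-32853954 (minus strand) and chr5:132490774-132491023 (minus strand).

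Over the full RefSeq windows of 250 bases before to 50 after each start, the NF-κB consensus was present in 5.91% of all 35116 promoters, the response element in 3.57% and the gamma-activated site in 7.66%. HLA-B had overlapping NF-κB matches from position -177 to -167, counted from the start base as 0, and HLA-C had 1 from -172 to -163. Aligned end to end, the HLA-B and HLA-C promoters shared 88.5% of their 304 columns. B2M carried overlapping response elements from -144 to -129 followed by an NF-κB match from -125 to -116. TAP1 carried overlapping response elements from -134 to -119 and NF-κB matches from -72 to -63 and, after the start, from 22 to 31. A second TAP1 promoter in RefSeq held a gamma-activated site from -189 to -181. A PSMB8 promoter at chr6:32843998-32844297 held a gamma-activated site from -65 to -57 and a response element from -4 to 5. It lies outside the merged PSMB8 promoter peak described below. The other PSMB8 promoter, chr6:32844630-32844929, lies within that merged peak and held none of these 3 motifs. The PSMB9 window, chr6:32853942-32854241, held none of them either. It does not reach the TAP1 response elements and the TAP1 NF-κB match before the start, which lie between the TAP1 and PSMB9 starts. IRF1 carried a gamma-activated site from -124 to -116 and an NF-κB match from -50 to -41. The AP1 word TGACTCA, which 4.95% of all promoters held, matched none of the 9 promoters. A match is a string of letters, and whether a factor bound there was not measured.

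H3K27ac was found at class I promoters in every condition. A promoter peak was present in all 6 libraries at 6 of the 9 genes, HLA-C, HLA-E, B2M, TAP1, PSMB9 and IRF1, where 51.9% of all protein-coding genes had one. HLA-B, PSMB8 and NLRC5 each lacked a promoter peak in at least 1 library. Untreated replicate 2 held promoter peaks at 7 of the 9 genes (58.8% of all genes), cobimetinib replicate 2 and TNFα replicate 2 at 8 (62.2% and 61.4%), and the replicate 1 libraries at all 9 (65.3% untreated, 65.4% cobimetinib and 65.2% TNFα). In the plot of promoter ranks, TAP1 and PSMB9 sit highest in cobimetinib, IRF1 sits highest in TNFα, and NLRC5 lies below the other genes in each library that held its peak.

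**Figure D1:**
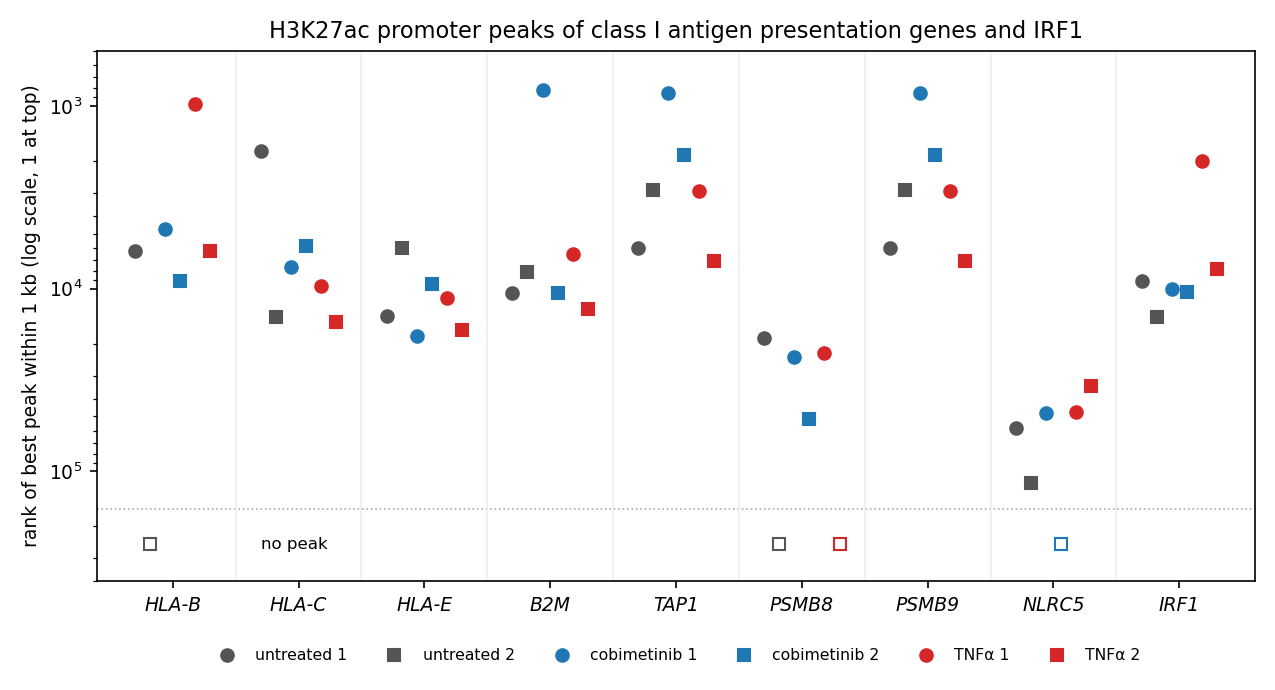
Rank of the best H3K27ac peak within 1 kb of a transcript start (log axis, rank 1 at the top) for 9 genes in 6 libraries, with grey, blue and red for untreated, cobimetinib and TNFα, circles for replicate 1, squares for replicate 2 and open symbols for libraries with no peak. TAP1 and PSMB9 share 1 peak that ranked 856 and 1855 in cobimetinib, and the IRF1 peaks ranked 2012 and 7776 in TNFα.

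Among the heavy chain genes, HLA-B (ENSG00000234745.14, start at chromosome 6 position 31357179, minus strand) had its promoter peak at rank 6212 in untreated replicate 1 and none in untreated replicate 2. It ranked 4730 and 9049 with cobimetinib, and 976 and 6268 with TNFα. TNFα replicate 1 was the highest of the 6, and the groups overlapped. The best peak was 607 to 1186 bp wide in the 5 libraries that held it and covered the first exon of the gene in all of them. HLA-B lay closer to the top with TNFα than with cobimetinib by 1.69 ± 0.77 (SE, n = 2 against 2), the difference in minus log2 of the rank among genes tested, where 1 means a rank number 2 times smaller. This did not pass the threshold (limma, Benjamini-Hochberg adjusted p = 0.366), and the difference ranged from 0.36 to 3.02 when single libraries were left out.

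HLA-C (ENSG00000204525.18, 31272092, minus strand) had promoter peaks in all 6 libraries. They ranked 1774 and 14328 in the untreated libraries, 7647 and 5819 with cobimetinib, and 9691 and 15235 with TNFα. One untreated library was above and the other below both cobimetinib libraries, and both cobimetinib libraries ranked above both TNFα libraries. The difference of TNFα from untreated was -1.19 ± 0.78 (limma, adjusted p = 0.943) and that of TNFα from cobimetinib was -0.60 ± 0.55 (limma, adjusted p = 0.695). With single libraries left out, the former ran from -2.34 without untreated replicate 2 to -0.046 without untreated replicate 1, and the latter from -0.82 to -0.38. The width in untreated replicate 2, 263 bp, was the narrowest, against 1409 bp in untreated replicate 1.

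HLA-E (ENSG00000204592.9, 30489509, plus strand) ranked 14155 and 6029 in the untreated libraries, 18103 and 9482 with cobimetinib, and 11214 and 16889 with TNFα. The 3 groups overlapped, and no fitted difference exceeded 0.46 in size, with adjusted p-values from limma of 0.853 or more.

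B2M (ENSG00000166710.23, chromosome 15 position 44711517, plus strand) showed 1 library apart from the others. Without treatment its best promoter peak was at ranks 10588 and 8085, compared with 819 and 10576 with cobimetinib and 6437 and 12886 with TNFα. The peak behind rank 819 in cobimetinib replicate 1, chr15:44715379-44715701, is not at the main start. It is 323 bp wide, contains all 279 bases of the second B2M exon, ends on the last base of that exon, and was absent from the other 5 libraries. In the same library a peak of 434 bp at rank 2099 covered 73.3% of the fourth exon, where untreated replicate 1 and TNFα replicate 1 held peaks at ranks 57647 and 66760 and the other 3 libraries none. A peak list holds no reads, so whether these peaks reflect chromatin or spliced B2M sequence in that library cannot be told apart, and rank 819 and the differences that rest on it share this limit. The peak over the main start, chr15:44710783-44712868 as merged over all libraries, also lies at a start of the neighbouring gene PATL2. It ranked 10588 and 8085, 4377 and 10576, and 6437 and 12886 in the same order, with all 3 groups overlapping. Over any start, cobimetinib differed from untreated by 1.38 ± 0.94 (limma, adjusted p = 0.724) and TNFα from cobimetinib by -1.33 ± 0.76 (limma, adjusted p = 0.483). At the main start these differences were 0.27 and -0.21.

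TAP1 and PSMB9 are divergent neighbours whose starts lie 0.488 kb apart (TAP1, ENSG00000168394.13, chromosome 6 position 32853704, minus strand, and PSMB9, ENSG00000240065.8, position 32854192, plus strand). The same peak is the best promoter peak of both, so their values are 1 measurement and not 2. It ranked 6004 and 2904 in the untreated libraries, 856 and 1855 with cobimetinib, and 2917 and 7064 with TNFα. Both cobimetinib libraries ranked above the other 4, and the untreated and TNFα libraries overlapped. The peak was 1261 and 1356 bp wide with cobimetinib, 1490 bp in untreated replicate 1, 515 bp in untreated replicate 2 and 1349 bp in TNFα replicate 1. In TNFα replicate 2 the domain was split into peaks of 597 and 457 bp at ranks 19014 and 7064. The difference of cobimetinib from untreated was 1.47 ± 0.94 (limma, adjusted p = 0.721) and that of TNFα from cobimetinib was -1.46 ± 0.78 (limma, adjusted p = 0.45). With single libraries left out, the former ran from 0.76 without untreated replicate 1 to 2.17 without untreated replicate 2, and the latter from -2.04 without TNFα replicate 1 to -0.88 without TNFα replicate 2.

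PSMB8 (ENSG00000204264.12, position 32844047, minus strand) had a weaker promoter peak, chr6:32844433-32845040 as merged. In the libraries that held it, this peak lay 386 to 610 bp from the canonical PSMB8 start and also within 1 kb of a PSMB9 start. It ranked 18630 in untreated replicate 1, 23687 and 52035 with cobimetinib, and 22564 in TNFα replicate 1, and was not called in untreated replicate 2 or TNFα replicate 2. Groups overlapped, and since each comparison holds at least 1 library without this peak, PSMB8 entered none of the 3 fits. The promoter of TAP2, the partner subunit of the transporter, lies in the same locus and ranked 12591 and 30557 untreated, 10194 and 14077 with cobimetinib, and 12435 and 11363 with TNFα. Both TNFα libraries were above both untreated libraries, as at 11.6% of all genes, though ranks 12435 and 12591 nearly touched. The fitted difference was 0.24 ± 0.40 (limma, adjusted p = 0.968). The cobimetinib libraries overlapped both groups.

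**Figure D2:**
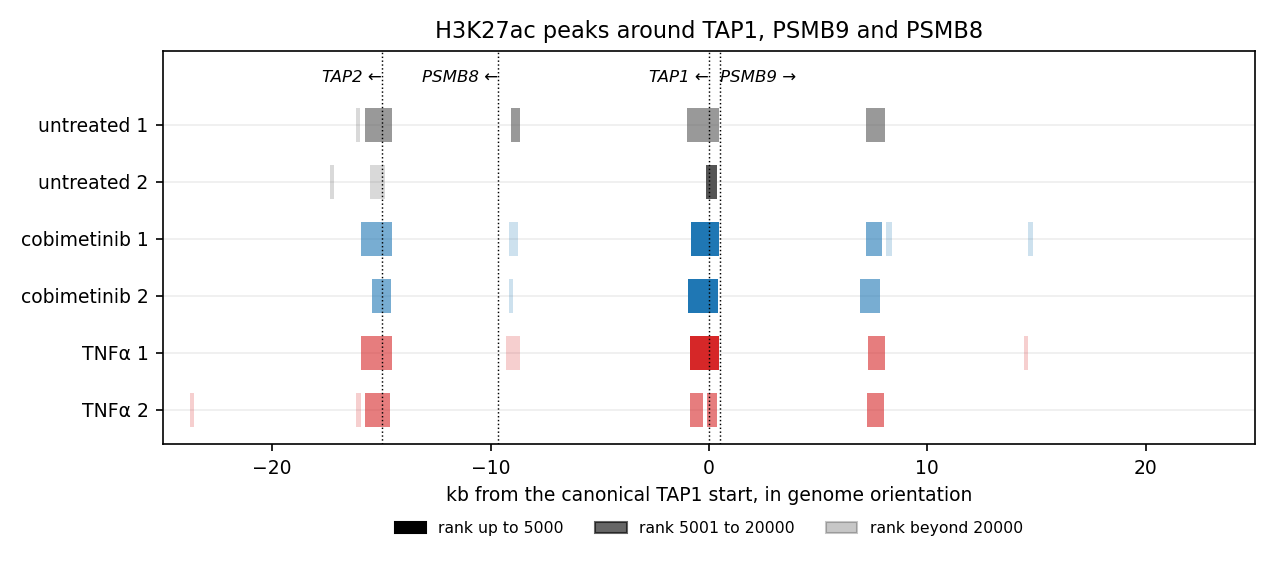
H3K27ac peaks of the 6 libraries within 25 kb of the TAP1 start (x axis, kb in genome orientation, bars to scale, darker for higher rank), with dotted lines at the starts of TAP2, PSMB8, TAP1 and PSMB9. The shared TAP1 and PSMB9 peak is in the darkest class in both cobimetinib libraries, untreated replicate 2 and TNFα replicate 1. The peaks to the right of PSMB9 ranked 7507 and 8947 in TNFα.

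A region between genes beyond PSMB9, chr6:32860614-32862100 and 4517 bp from the nearest PSMB9 start, ranked higher with TNFα. Its peaks ranked 7507 and 8947 with TNFα, 19240 and 15190 with cobimetinib, and 15988 in untreated replicate 1, and none was called in untreated replicate 2. Both TNFα libraries were above the other 4. The 300 bases at the centre of its best-ranked peak, chr6:32861232-32861531 (hg38, plus strand), are printed because they hold 2 NF-κB matches, in capitals, where 5.38% of 38213 such windows genome-wide held at least 1.
PSMB9 downstream region: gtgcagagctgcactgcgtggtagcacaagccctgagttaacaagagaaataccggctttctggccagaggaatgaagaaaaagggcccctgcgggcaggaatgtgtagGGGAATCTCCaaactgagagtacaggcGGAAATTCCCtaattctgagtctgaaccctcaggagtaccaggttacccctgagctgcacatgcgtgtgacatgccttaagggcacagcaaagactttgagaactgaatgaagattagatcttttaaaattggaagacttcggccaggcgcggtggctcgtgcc
The window held no AP1 word, response element or gamma-activated site. Genome-wide those were present in 16.2%, 4.52% and 9.06% of the windows. The windows of the other regions higher with TNFα, upstream of IRF1 and within NLRC5, held none of the 4 motifs. The windows of the merged regions over the main starts of HLA-B, B2M and IRF1, where groups overlapped, each held 1 NF-κB match.

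NLRC5 (ENSG00000140853.17, chromosome 16 position 56989557, plus strand) had the lowest promoter ranks of the 9 genes. They were 57647 and 116026 in the untreated libraries, 48189 in cobimetinib replicate 1, none in cobimetinib replicate 2, and 47297 and 34318 with TNFα. Both TNFα libraries ranked above the other 4, by peaks of 303 and 283 bp. The best NLRC5 promoter peaks scored only 22 to 39, near the lowest score of 20 in each list. The gene has 29 annotated transcripts whose starts span 91514 bp, and the peak of TNFα replicate 1 lay 36743 bp from the canonical start, so these ranks compare different starts. At the canonical start, TNFα replicate 1 had no peak. Between TNFα and untreated the fitted difference was 0.05 ± 0.11 (limma, adjusted p = 0.977). An intronic region at chr16:57000078-57001005 ranked 21383 and 18549 with TNFα and 41091 in untreated replicate 1, and had no peak in the other 3 libraries. A stronger region between genes, 3359 bp from the nearest NLRC5 start (chr16:56984781-56986126), was present in all 6 libraries at ranks between 8145 and 14614, with overlap of all groups.

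IRF1 (ENSG00000125347.15, chromosome 5 position 132490773, minus strand) had promoter peaks in all 6 libraries by any start. Untreated ranks of the best peak were 9050 and 14328, against 10037 and 10403 with cobimetinib and 2012 and 7776 with TNFα. Both TNFα libraries were above the other 4. TNFα differed from untreated by 1.47 ± 0.78 (limma, adjusted p = 0.943) and from cobimetinib by 1.51 ± 0.66 (limma, adjusted p = 0.35), whereas cobimetinib differed from untreated by -0.01 ± 0.51 (limma, adjusted p = 0.997). Without TNFα replicate 1 the first 2 differences were 0.55 and 0.58, and without TNFα replicate 2 they were 2.39 and 2.44. These values do not come from 1 element. IRF1 has 50 annotated transcripts with starts over 55697 bp, and the best peak lay over the canonical start in untreated replicate 1, 18600 bp from it in untreated replicate 2, 4715 and 4848 bp from it in the cobimetinib libraries, and 6485 and 6258 bp from it in the TNFα libraries.

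The elements of the IRF1 locus differed in which group ranked highest. The merged region over the canonical start (chr5:132489794-132491379) ranked 9050 and 106783 untreated, 14301 and 12221 with cobimetinib, and 7586 and 19513 with TNFα. Ranks 106783 and 19513 belong to side peaks in that region. The peaks over the start itself ranked 111728 in untreated replicate 2 and 28783 in TNFα replicate 2. The groups overlapped either way. With that start alone, the difference of TNFα was 0.35 from untreated and 0.25 from cobimetinib. Upstream of it, within an intron of longer IRF1 transcripts, the region chr5:132495460-132498648 ranked 15988 and 9137 untreated, 10037 and 10403 with cobimetinib, and 2012 and 7776 with TNFα, the latter above all others. Its bases under peaks, 2329 and 2072 bp with TNFα, overlapped those with cobimetinib (2265 and 1981 bp). The centre of its best-ranked peak held none of the 4 motifs searched in regions.

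A distal intronic region at the other end of the longest IRF1 transcripts, chr5:132444883-132446873, had the reverse order. It ranked 1251 and 1342 with cobimetinib, 10280 and 2786 untreated, and 13638 and 9879 with TNFα. Both cobimetinib libraries were above the other 4, and their peaks were also the widest, 1991 and 1928 bp against 818 to 1193 bp elsewhere. The region lies 6149 bp from the nearest IRF1 start and overlaps IRF1-AS1, a gene on the opposite strand, and a readthrough gene, and peaks carry no strand that could tell them apart. A further intronic region at chr5:132505683-132506657 ranked 22080 and 18661 with cobimetinib, at 106783 in untreated replicate 2 and 42798 in TNFα replicate 1, and was not called in the other 2. Neither window held any of the 4 motifs.

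**Figure D3:**
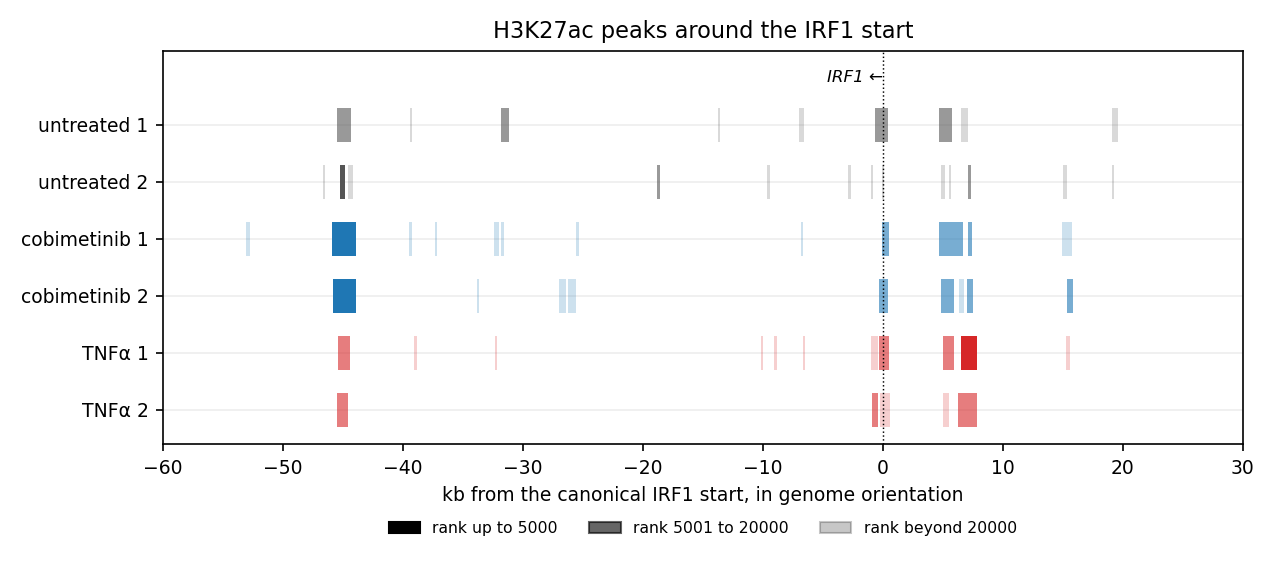
H3K27ac peaks of the 6 libraries from 60 kb before to 30 kb after the canonical IRF1 start in genome orientation (x axis in kb, bars to scale, darker for higher rank). The distal peaks near -45 kb are widest in the cobimetinib libraries, and are in the darkest class there and in untreated replicate 2. The peaks near 7 kb ranked 2012 and 7776 in the TNFα libraries.

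None of the 9 genes passed the test in any comparison. Cobimetinib against untreated called 0 of 10661 genes (0%; limma, adjusted p threshold 0.05), with 662 genes (6.21%) at an unadjusted p under 0.05, none of them among the 9. TNFα against untreated called 0 of 10582 genes (0%), with 387 (3.66%) at an unadjusted p under 0.05, none of them among the 9. TNFα against cobimetinib called 20 of 11360 genes (0.176%), 18 of them nearer the top with TNFα (0.158%), and none of the 9. That direction rests on single libraries and on the scale, since only 6 of 23 calls (26.1%) were nearer the top with TNFα without cobimetinib replicate 1, 3 of 13 (23.1%) without cobimetinib replicate 2, and 53 of 145 (36.6%) with ranks over the whole peak list. HLA-B and IRF1 were among the 1406 genes (12.4%) at an unadjusted p under 0.05, both nearer the top with TNFα. Of the 9 genes, 6, 7 and 7 could be fitted in the 3 comparisons, since a fit needs a peak in all 4 libraries. Their median differences were 0.68, 0.02 and -0.60, against -0.03, -0.03 and -0.01 over all genes tested. With the shared peak of TAP1 and PSMB9 counted 1 time, the medians were -0.01, 0.03 and -0.30. The comparisons share libraries, so they are not independent of each other. An exact permutation of 2 libraries against 2 cannot give a two-sided p below 0.333.

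**Figure D4:**
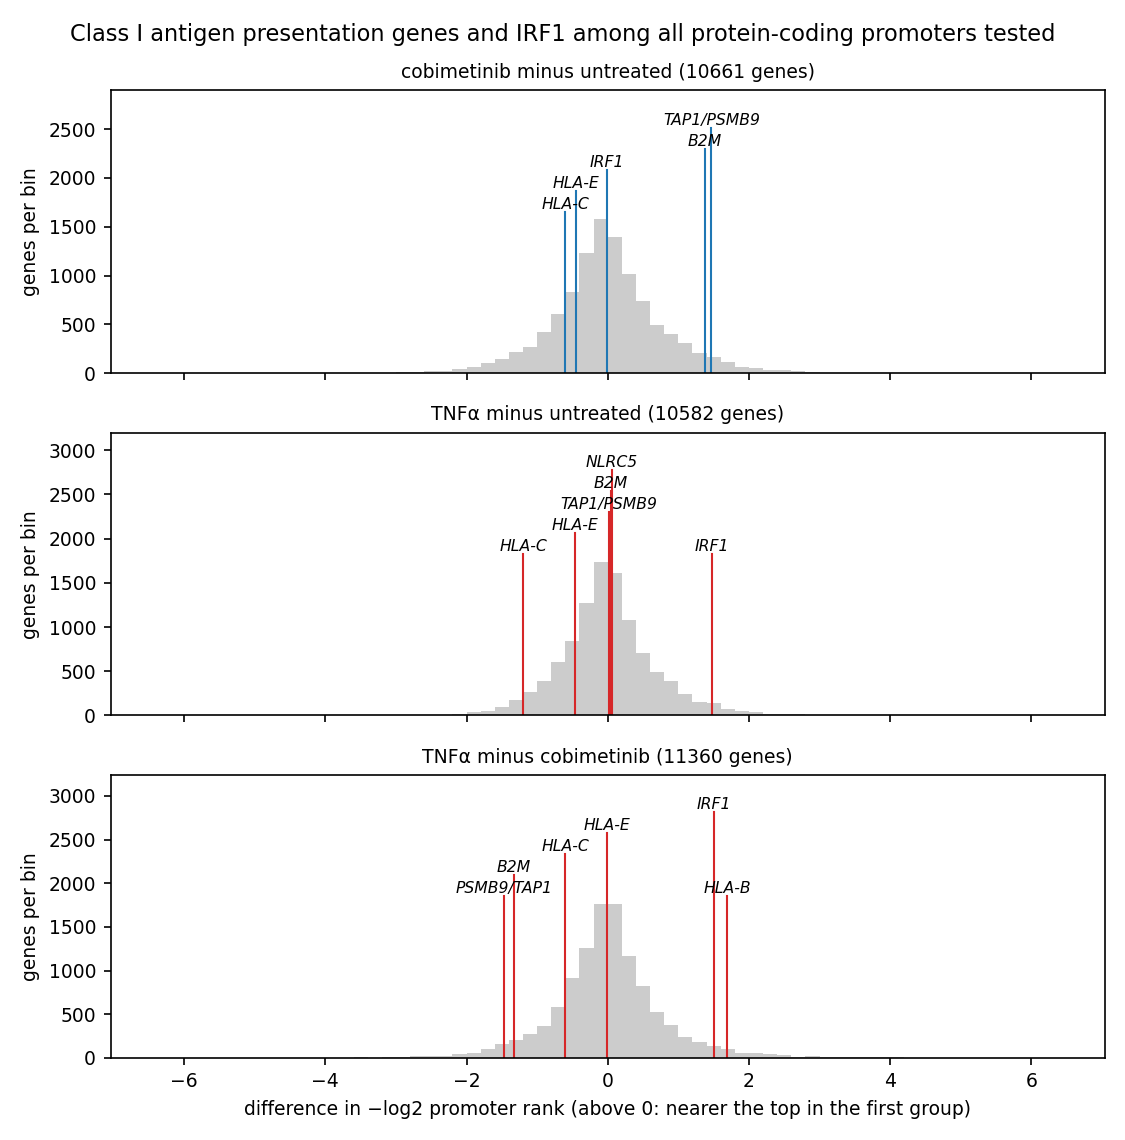
Histograms of the difference between groups in minus log2 promoter rank (x axis, above 0 when nearer the top in the first group named) for all genes tested in each comparison (y axis, genes per bin), with lines at the class I genes and IRF1 that could be fitted. IRF1 lies at 1.47 and 1.51 in the comparisons that hold TNFα, and TAP1 with PSMB9 at 1.47 and -1.46 in those that hold cobimetinib.

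Ranks separated completely between at least 1 pair of groups at 5 of the 9 genes, HLA-C, TAP1, PSMB9, NLRC5 and IRF1, where 55.5% of all genes did so, and TAP1 and PSMB9 are 1 peak. With an absent peak placed last, both cobimetinib libraries ranked above both untreated libraries at TAP1 and PSMB9, 2 of 9 genes, against 19.6% of all genes with a peak in these libraries. The reverse held at 0 of 9 (11.9% of all genes). Both TNFα libraries ranked above both untreated at NLRC5 and IRF1 (2 of 9, against 11.6%), and the reverse held at 0 of 9 (13.8%). TNFα ranked above cobimetinib at the same genes (2 of 9, against 14.3%), and cobimetinib above TNFα at HLA-C, TAP1 and PSMB9 (3 of 9, against 26.1%). TAP1 and PSMB9 were above both other groups with cobimetinib (12.3% of all genes), NLRC5 and IRF1 were so with TNFα (4.64%), and 0 of the 9 were so untreated (5.72%).

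Beyond promoters, the best peak anywhere within 20 kb ranked higher with cobimetinib than in both other groups at TAP1, PSMB8, PSMB9 and IRF1 (4 of 9, against 11.5% of all genes). The first 3 share this peak, the TAP1 and PSMB9 promoter, so these are 2 separate elements. Cobimetinib ranked above untreated at these 4 genes (18.4%) and above TNFα at these and HLA-C (5 of 9, against 25.5%). The other orders were found at 0 of 9 genes, namely untreated above cobimetinib (17%), untreated above TNFα (18.2%), TNFα above untreated (13.4%), TNFα above cobimetinib (18.1%), TNFα above both (6.16%) and untreated above both (7.5%).

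In the 20 kb neighbourhoods, cobimetinib had the most acetylated bases at IRF1. Peaks within 20 kb of any IRF1 start covered 6010 and 3462 bp in the untreated libraries, 7221 and 6628 bp with cobimetinib, and 6063 and 4749 bp with TNFα. Both cobimetinib libraries were above the other 4, as at 5.63% of all genes. NLRC5 had 5472 and 1663 bp untreated, 2824 and 2785 bp with cobimetinib, and 4676 and 4651 bp with TNFα, so that TNFα was above cobimetinib and the untreated libraries spanned both. HLA-C had 1409 and 263 bp untreated, 2073 and 1541 bp with cobimetinib, and 1629 and 1506 bp with TNFα, above untreated in both treatments. The cobimetinib totals at HLA-C include peaks of 290 and 220 bp on RPL3P2, a processed pseudogene. Within 1 kb of HLA-C starts, peaks covered 1783 and 1321 bp with cobimetinib, which overlapped the untreated 1409 and 263 bp. The lowest library was untreated replicate 2 at all 9 genes. Its peaks also had the lowest median width, given above, and the part of that in these differences was not tested. Cobimetinib exceeded untreated at 2 of 9 genes (HLA-C and IRF1, against 10.1% of all genes), TNFα exceeded untreated at 1 (HLA-C, 9.18%), TNFα exceeded cobimetinib at 1 (NLRC5, 15.4%) and cobimetinib exceeded TNFα at 1 (IRF1, 19.9%). Untreated exceeded cobimetinib at 0 of 9 (8.27%) and TNFα at 0 (7.11%), and neither TNFα (4.83%) nor untreated (2.69%) exceeded both other groups at any of the 9.

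**Figure D5:**
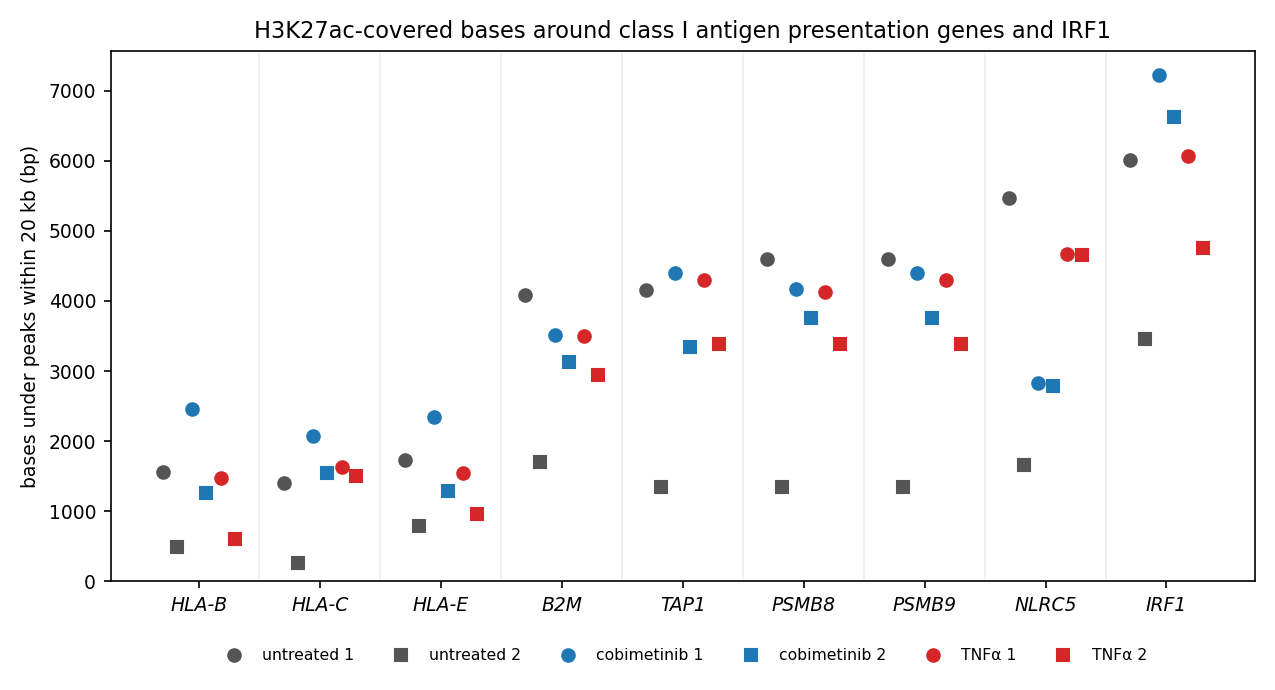
Bases under H3K27ac peaks within 20 kb of any transcript start (y axis, bp, from 0) for 9 genes, with 1 symbol per library as in the plot of promoter ranks. Untreated replicate 2 (grey square) is the lowest at every gene, and the cobimetinib libraries are highest at IRF1, with 7221 and 6628 bp.

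The 9 neighbourhoods form 7 loci, since those of TAP1, PSMB8 and PSMB9 merge, and hold 83 merged regions, of which 23 contain at least 1 of the 20000 highest peaks of a library. Of these 23, 5 ranked above both other groups with cobimetinib, against 12.7% of 38213 such regions genome-wide, 3 with TNFα (10.4%) and 0 in the untreated group (4.2%). All 6 libraries held 10 of the 23 (48.5% genome-wide). The 3 higher with TNFα are those described upstream of IRF1, beyond PSMB9 and within NLRC5. The 5 higher with cobimetinib are the TAP1 and PSMB9 promoter, the distal and the further intronic IRF1 regions, the start of CPNE2 near NLRC5 and a narrow region near HLA-C. The regions were filtered on the same ranks, so a region high in 1 group could enter through that group alone. The CPNE2, HLA-C and further intronic IRF1 regions entered through a cobimetinib library only, and the region within NLRC5 through a TNFα library only. The counts of separated regions therefore only describe this filtered set. The region near HLA-C (chr6:31280269-31280558) ranked 6013 and 33376 with cobimetinib, had no peak in the other 4 libraries, and lies on RPL3P2, a processed pseudogene of a ribosomal protein gene.

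No gene of the wider class I pathway passed the test either. Of 28 further genes of peptide loading, proteasome and interferon signaling, 24 had a promoter peak in all 6 libraries, and 0 were called among the 24, 24 and 26 that could be fitted in the 3 comparisons. Their median differences were 0.08, 0.04 and 0.08. Promoter ranks separated with cobimetinib above untreated at 6 of the 28 genes (19.6% of all genes) and below at 5 (11.9%). TNFα ranked above untreated at 7 (11.6%) and below at 4 (13.8%). Against cobimetinib, TNFα ranked above at 6 (14.3%) and below at 10 (26.1%). Tapasin (TAPBP), which bridges TAP and empty class I molecules, ranked 9050 and 11483 untreated, 4071 and 1564 with cobimetinib, and 2889 and 2329 with TNFα. Both treatments lay above untreated, by 1.66 ± 0.79 with cobimetinib (limma, adjusted p = 0.717) and 2.02 ± 0.78 with TNFα (limma, adjusted p = 0.943). The former ran from 1.00 to 2.31 with single libraries left out. PSMB5, the constitutive proteasome subunit that PSMB8 replaces, ranked 91 and 1406 with TNFα, 1618 and 1691 with cobimetinib, and 131 and 1448 untreated. Both cobimetinib libraries were below the other 4, with a difference of TNFα from cobimetinib of 2.87 ± 1.02 (limma, adjusted p = 0.25), which was 0.93 without TNFα replicate 1 and 4.81 without TNFα replicate 2. Calnexin (CANX), a chaperone of new heavy chains, ranked 2623 and 7060 untreated and 1593 and 1721 with TNFα, a difference of 1.64 ± 0.90 (limma, adjusted p = 0.943). PDIA3, another member of the loading complex, ranked 2344 and 2023 untreated, 6500 and 4787 with cobimetinib, and 6812 and 8245 with TNFα. Both treatments lay below untreated, and the difference of TNFα from untreated was -1.66 ± 0.81 (limma, adjusted p = 0.943).

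MHC class II genes, which epithelial cells usually keep silent, had fewer promoter peaks than the class I genes. Of 12 class II genes, 2 had a promoter peak in all 6 libraries, HLA-DRB1 and HLA-DMA, and 2 had none in any. The HLA-DRB1 peaks were 169 to 649 bp wide and ranked between 9882 and 47297. The HLA-DMA peaks, at ranks 237 to 913, lay 15409 bp or more from the canonical HLA-DMA start and at a start of BRD2. HLA-DRA had a peak in cobimetinib replicate 1 alone, at rank 24915. CIITA, the class II transactivator, had no peak within 1 kb of its canonical start in any library. The best peaks at its other starts, at ranks 13822 in untreated replicate 1 and 18381 in TNFα replicate 1, lay 64471 and 64324 bp from the canonical start and at a start of DEXI, and those at 30557 in untreated replicate 2 and 67153 in cobimetinib replicate 2 lay 45521 and 46050 bp from it.

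Some promoters elsewhere ranked like these genes in all 6 libraries, as measured by the Euclidean distance between log2 ranks over the 10392 genes with a peak in every library. Nearest to IRF1 was PNN at 0.64, which ranked 8536 and 12783 untreated, 14301 and 10261 with cobimetinib, and 2511 and 8382 with TNFα, followed by ALG5 and EXOSC8, which share a peak, at 0.98. Nearest to B2M was SVBP at 1.26. NLRC5 has no promoter peak in cobimetinib replicate 2 and was not compared in this way.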

How the data were processed

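H3K27ac CUT&RUN libraries of untreated, cobimetinib-treated and TNFα-treated HCT116 cells were compared, 2 per group, as grouped by the labels. The authors trimmed reads with BBDuk, aligned them to hg38 with BWA version 0.7.15, kept mapping quality over 10, and called peaks per library with MACS2 version 2.1.1 at a p-value of 0.01 without the IgG background, merging paired-end and single-end calls at their higher score. Deposited scores are whole numbers on the MACS2 scale of -10 times log10 of p. They rise with depth, which is unknown, so they served only to rank peaks within a library. The study's own test used read counts, which peak lists do not hold. Reads from near-identical copies, such as HLA genes, can be lost to the mapping filter.

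Each gene's best peak within 1 kb of a GENCODE release 44 start was ranked among genes tested, and minus log2 ranks were compared with limma 3.58.1 (R 4.3.3, trend, Benjamini-Hochberg over all genes, threshold 0.05). The fit was tested on simulated data, in which it recovered part of the known shifts. Motifs and figures used Python 3.11.15. The genes and lists were chosen with earlier results of these data known. All 9 genes are named, pathway genes that separate groups by size of difference (a subset of at most 10 per comparison, of which some are not reported here), class II genes with a peak in all 6 libraries (HLA-DRA and CIITA were added after their values were seen), and regions with one of the 20000 highest peaks. Starts restricted to the canonical one, and most leave-one-out counts, were added after the data were seen.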

Additional observations from a re-analysis of the deposited data

How the results depend on the processing

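None of the 9 genes was called under any alternative. The count of called genes (0, 0 and 20 for cobimetinib against untreated, TNFα against untreated and TNFα against cobimetinib) became 2, 2 and 100 with a replicate block. With peaks scoring at least 50, TNFα against untreated called 2 and TNFα against cobimetinib 56. The latter comparison called 0 with all 6 libraries in one fit, 33 with a 2 kb window, 150 with genes that had a peak in any library, and 145 with whole-list ranks. Of those 145, 53 (36.6%) were nearer the top with TNFα, against 18 of 20 (90%), and whole-list ranks shifted the median of all genes to 0.29, 0.09 and -0.22. Leaving out single libraries, where the lone sample is assumed to vary like the other group, gave 0 to 3, 0 to 5 and 3 to 37 calls. The last range runs from 3 without TNFα replicate 1 to 37 without TNFα replicate 2, with 13 without cobimetinib replicate 2, and 26.1% and 23.1% of calls were nearer the top with TNFα without cobimetinib replicate 1 and replicate 2. The cause of these changes was not tested.

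Replicate numbers were not shown to pair the libraries: deviations of same-numbered libraries correlated at -0.05 between untreated and cobimetinib, 0.12 between untreated and TNFα and 0.05 between cobimetinib and TNFα.

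The number of genes with separated promoter ranks depended on the peak and the libraries. Using the best peak within 20 kb, cobimetinib ranked above untreated at 4 genes and above TNFα at 5, and TNFα above either other group at 0. With canonical starts TNFα also ranked above either other group at 0, so the separation of IRF1 and NLRC5 rests on other starts. Leaving out single libraries gave 2 to 6 (cobimetinib above untreated, 6 without untreated replicate 1), 1 to 3 (untreated above cobimetinib, 3 without untreated replicate 2), 2 to 4 (TNFα above untreated, 4 without TNFα replicate 2), 0 to 5 (untreated above TNFα, 5 without TNFα replicate 1), 2 to 4 (TNFα above cobimetinib, 4 without TNFα replicate 2) and 3 to 5 genes (cobimetinib above TNFα, 5 without TNFα replicate 1). For covered bases the ranges were 2 to 9, 0 to 4, 1 to 9, 0 to 6, 1 to 2 and 1 to 8 genes in the same order. Without untreated replicate 1, which leaves the narrow-peaked library alone, both treatments exceeded untreated at all 9 genes, and without untreated replicate 2 untreated exceeded cobimetinib at 4 and TNFα at 6. Scores of at least 50 left 0 genes with TNFα above cobimetinib in covered bases, and the 20000 highest peaks gave 2 with cobimetinib above TNFα.

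Some single differences changed sign, and not all of them were close to 0. Those of B2M, 1.38 for cobimetinib against untreated and -1.33 for TNFα against cobimetinib, did so without cobimetinib replicate 1. IRF1 between cobimetinib and untreated (-0.01) became 0.24 with protein-coding transcripts, 0.16 with whole-list ranks and 0.12 with canonical starts, and ranged from -0.056 to 0.038 over left-out libraries. TAP1 and PSMB9 between TNFα and untreated (0.02) became -0.12 with whole-list ranks and ranged from -0.69 to 0.72. HLA-E between TNFα and cobimetinib (-0.01) became 0.0004 with genes that had a peak in any library and ranged from -0.31 to 0.29. Over left-out libraries, HLA-E ranged from -1.12 to 0.23 for cobimetinib against untreated and from -1.14 to 0.21 for TNFα against untreated, HLA-C from -1.75 to 0.54 for cobimetinib against untreated, and B2M from -0.28 to 3.04, -0.35 to 0.44 and -3.01 to 0.35 in the 3 comparisons. All other differences of named genes kept their sign, and the number of genes with a promoter peak in every library was 4 with scores of at least 50 and 6 or 7 under the other alternatives. Unknown depth and 2 libraries per group limit every comparison.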
